A study of Mus musculus with 5 samples.

Results

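Major histocompatibility complex (MHC) class I molecules display peptides from inside a cell to cytotoxic T cells. Retinal transcripts of this pathway were followed here in diabetic and control mice for 7 genes: H2-D1, H2-K1, H2-T23, B2m, Tap1, Psmb8 and Psmb9. Every probe set whose platform annotation named exactly 1 of these genes was taken, which gave 22 of the 45037 probe sets of the array that are not controls, from 6 of the 18193 genes with such a probe set. They were 9 probe sets of H2-D1, 4 of H2-K1, 4 of Tap1, 2 of B2m, 2 of Psmb8 and 1 of Psmb9. H2-T23 had 0, since both probe sets that list it, 2 in number, list another symbol as well, so no value is given for it. In all, 5 probe sets listing one of these genes with others were left out.

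Class I heavy chains, encoded by H2-D1 and H2-K1 and by less variable relatives such as H2-T23 (Qa-1), pair with the light chain beta-2-microglobulin, encoded by B2m. Psmb8 and Psmb9 encode catalytic subunits that replace those of the constitutive proteasome and change the peptides it cuts, and Tap1 encodes part of the transporter that moves peptides into the endoplasmic reticulum. In neural tissue, the retina included, class I is generally described as low at rest. Interferon raises it, above all in microglia and vascular cells. On these arrays the brightest H2-D1 probe set, 1425545_x_at, stood at percentile 94.5 or higher of all probe sets in every pool. Probe sets with the suffix _x_at hold probes that also match other transcripts. The H2-D1 probe sets without that suffix stood lower, 1426324_at at percentile 67.1 to 72.7 and 1451934_at at 1.8 to 29.6. H2-D1 and H2-K1 differ in sequence between mouse strains, and a probe set designed on the allele of 1 strain can read another allele poorly.

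The 3 diabetic samples and 2 control samples were pools of total RNA from whole mouse retinas, each on 1 whole-genome expression array. For diabetic replicates 1 and 2, 2 mice made diabetic with streptozotocin, a toxin of insulin-producing cells, gave 4 retinas to each pool after 5 weeks. For diabetic replicate 3, 3 mice gave 6 retinas after 3 to 4 weeks of experimentally induced diabetes, with no agent named. The control pools came from 2 untreated, age-matched, normoglycaemic mice each, again 4 retinas a pool. Strain, sex and age are not stated in the labels, so whether all pools were of 1 strain is unknown. A pool is 1 sample, and the spread between pools holds the mice and the handling together. The genes were chosen by signals on these same arrays, above all the contrast between pools at the H2 probe sets, so every difference between diabetic and control pools is given as a description.

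Photoreceptor markers of the retina were bright in all pools, with a summed signal over 6 genes between 573814 and 638349 in diabetic pools and between 564097 and 635087 in control pools. Diabetic replicate 3 and control replicate 2 carried high skeletal muscle signal (78303 and 52530.5 summed over 9 genes, against 5180 to 6423 in the other 3 pools). The beta-actin control probe sets gave a 3'-to-5' signal ratio of 4.32 for diabetic replicate 2, against 2.01 to 2.71 in the others. In bulk tissue, fewer cells of a type and less RNA per cell cannot be told apart.

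The upstream sequences of H2-D1, H2-K1 and B2m are given because these genes encode the chains of the class I molecule and their windows held both motifs searched. Each is the 250 bases before the gene's start in RefSeq (build GRCm38.p6), 5′ to 3′ on the gene's strand. Capitals mark 2 motifs searched on both strands, the interferon regulatory factor motif AANNGAAA and the kappa B motif of NF-kappa-B. The windows are chr17:35262844-35263093 (plus strand) for H2-D1, chr17:34000348-34000597 (minus strand, the first of 2 RefSeq starts) for H2-K1 and chr2:122147437-122147686 (plus strand) for B2m.
H2-D1: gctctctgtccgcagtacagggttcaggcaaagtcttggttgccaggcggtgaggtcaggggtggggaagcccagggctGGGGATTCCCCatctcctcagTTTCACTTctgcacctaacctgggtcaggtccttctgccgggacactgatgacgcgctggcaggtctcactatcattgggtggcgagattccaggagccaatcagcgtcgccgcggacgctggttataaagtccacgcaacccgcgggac
H2-K1: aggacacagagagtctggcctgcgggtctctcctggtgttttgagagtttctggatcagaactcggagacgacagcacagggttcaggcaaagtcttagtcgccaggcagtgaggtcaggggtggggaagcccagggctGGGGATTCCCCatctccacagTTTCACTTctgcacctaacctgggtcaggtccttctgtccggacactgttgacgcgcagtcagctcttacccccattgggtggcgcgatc
B2m: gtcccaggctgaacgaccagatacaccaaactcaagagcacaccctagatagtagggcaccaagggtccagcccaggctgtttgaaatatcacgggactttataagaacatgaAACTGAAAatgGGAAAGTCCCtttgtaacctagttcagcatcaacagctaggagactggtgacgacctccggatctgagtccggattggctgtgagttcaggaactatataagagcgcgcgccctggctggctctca

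The H2-D1 and H2-K1 windows were identical at 161 of 177 aligned positions (91.0%). In both, the kappa B motif, matched at 2 overlapping places, lies just before the interferon motif, whereas in B2m the interferon motif comes first. All 7 genes had a promoter in the table. The windows of H2-D1, H2-K1 and B2m held both motifs, as did 1.11% of all 32851 promoter windows of this length. AANNGAAA alone was in 21.3% of all windows and the kappa B motif in 7.25%. The H2-T23 window held AANNGAAA only. Neither motif was in the windows of Tap1, Psmb9 or Psmb8. Tap1 and Psmb9 are divergent neighbours whose windows share 225 bases. A match to these letters is a description and no measured binding.

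H2-D1, a classical class I heavy chain gene, gave the largest contrast between pools, and the contrast ran through the diabetic group. Its probe set 1452544_x_at had signals of 46.3, 50.0 and 2390.3 in diabetic replicates 1 to 3, against 2136 and 2003 in control replicates 1 and 2. Probe set 1427651_x_at had 35.3, 40.4 and 1943 in diabetic pools, against 1749.9 and 1605 in control pools. Probe set 1425614_x_at had 149.9, 61.1 and 2046 in diabetic pools, against 1896 and 1152 in control pools. In all 3 probe sets, diabetic replicates 1 and 2 were low and diabetic replicate 3 was above both controls, so the groups overlapped. On its own array the signal of 1452544_x_at stood at percentile 11.7, 13.8 and 71.3 of all probe sets in diabetic replicates 1 to 3, and at percentile 69.3 and 68.3 in the controls. The 2 pools in which it was low were those of 5 weeks after streptozotocin. Time, agent, mice and handling cannot be told apart between these pools and diabetic replicate 3, and none was tested.

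On the scale of log2(signal + 120.6), the 3 probe sets ranged over the 5 pools by 3.91, 3.73 and 3.58, the 26th, 38th and 40th largest ranges of 45037 probe sets, where the median range was 0.58. The other 19 member probe sets ranged by at most 1.50. The gap depends on the pseudocount: with a pseudocount of 1 the 3 ranged by 5.66, 5.74 and 5.04, but dim probe sets 1451934_at of H2-D1, 1449803_x_at of Tap1 and 1444619_x_at of Psmb8 by 4.59, 4.27 and 3.88. Group means of 1452544_x_at were 8.70 ± 2.25 (SD, n = 3) in diabetic pools and 11.10 ± 0.062 (SD, n = 2) in control pools, a difference of -2.40 (SE 1.03, 95% interval -4.75 to -0.045). The differences were -2.27 for 1427651_x_at and -1.76 for 1425614_x_at. These means stand for no single pool, since no diabetic pool lay near the diabetic mean. Without diabetic replicate 3, the pool in which they were high, 1452544_x_at differed by -3.70 and 1427651_x_at by -3.50. These are descriptions with no test, since the members were chosen by this split and both probe sets pass the filter on dim signals only through the pools in which they are high. Without diabetic replicate 1 or 2 the 3 differences lay between -1.76 and -1.07.

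**Figure D1:**
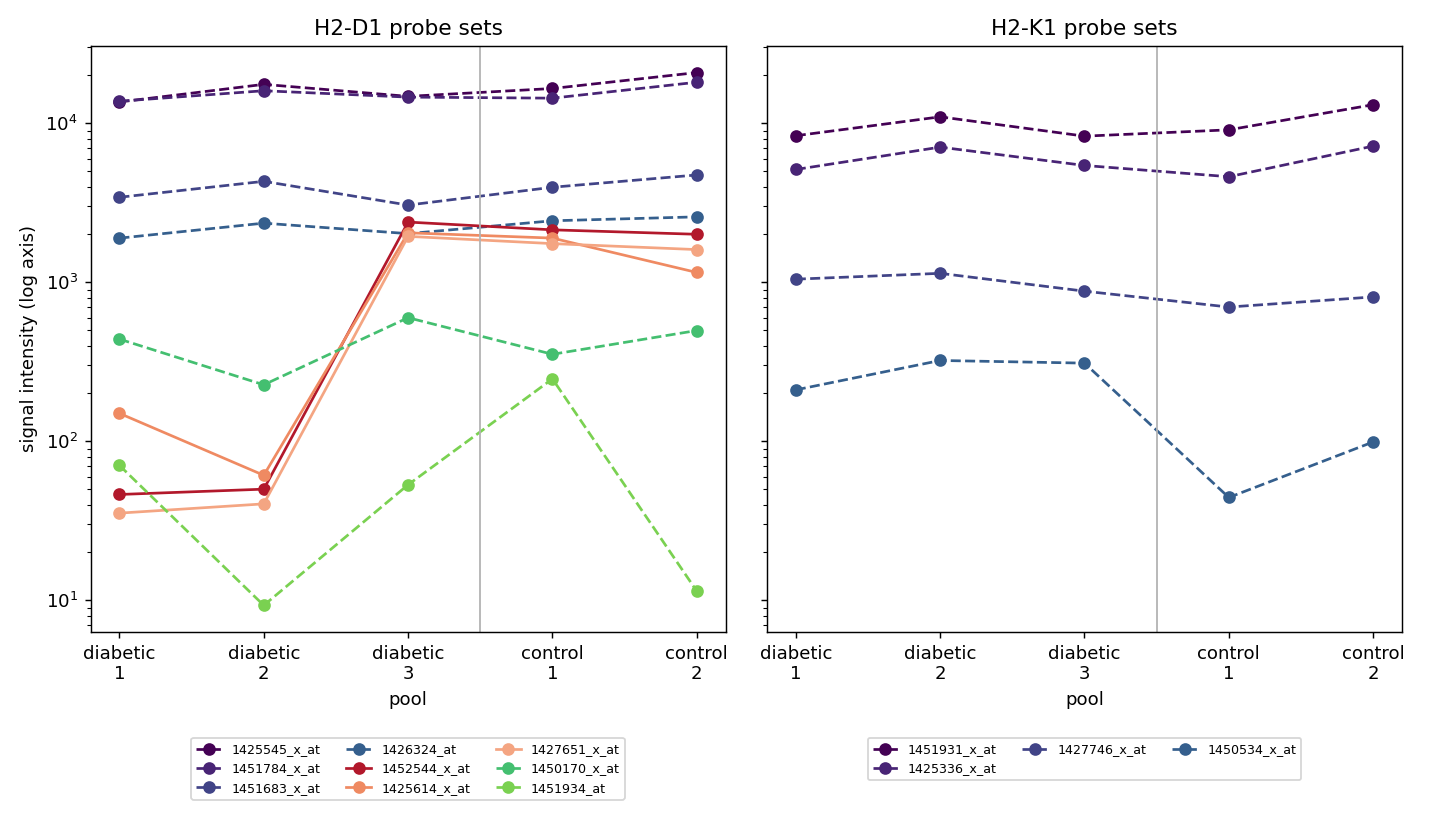
Signal intensity (log axis) of the 9 H2-D1 probe sets (left) and the 4 H2-K1 probe sets (right) in each pool, 1 point per pool. Lines join the points of a probe set and carry no order. The 3 solid lines are the H2-D1 probe sets with signals from 35.3 to 149.9 in diabetic replicates 1 and 2 and of 1152 or more in the other 3 pools.

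The remaining H2-D1 probe sets did not split this way. Probe set 1425545_x_at, the brightest, had signals of 13608, 17558 and 14756 in diabetic pools, against 16537 and 20824 in control pools. Probe set 1451784_x_at had 13752, 16005 and 14597 in diabetic pools, against 14377 and 18107 in control pools. In both, diabetic replicates 1 and 2 were bright where the split probe sets read near the bottom of the array, and control replicate 2 was highest. Probe set 1451683_x_at had 3423, 4312 and 3057 in diabetic pools, against 3958 and 4728 in control pools, and 1426324_at had 1894, 2354 and 2022 against 2436 and 2578. Of these 4, only 1426324_at had every diabetic pool below both controls, by a small margin.

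The differences of the 4 bright H2-D1 probe sets were -0.28 (95% interval -0.59 to 0.026) for 1425545_x_at, -0.13 (-0.40 to 0.14) for 1451784_x_at, -0.27 (-0.65 to 0.10) for 1451683_x_at and -0.25 (-0.59 to 0.081) for 1426324_at. Each interval includes 0. Without control replicate 2 they were -0.12, 0.037, -0.15 and -0.22. The 2 dim probe sets of H2-D1 followed neither pattern: 1450170_x_at ranged from 226.6 to 598.7 in diabetic pools, against 352.5 and 497.2 in control pools, and 1451934_at from 9.30 to 70.6 in diabetic pools, against 246.9 and 11.4 in control pools. Of the 9 H2-D1 probe sets, 7 carry the suffix _x_at, which the manufacturer gives to sets with probes that also match other transcripts, as do all 4 of H2-K1. Signals of the 2 genes may therefore mix, and how far was not tested.

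H2-K1, the other classical heavy chain gene measured, had probe sets with differences of both signs. The brightest, 1451931_x_at, had signals of 8345, 10973 and 8294 in diabetic pools, against 9088 and 13077 in control pools. Probe set 1425336_x_at had 5120, 7076 and 5425 in diabetic pools, against 4610 and 7183 in control pools. Their differences were -0.25 (95% interval -0.66 to 0.15) and 0.014 (-0.45 to 0.48), and the groups overlapped in both. Both rested on single controls: without control replicate 2 they were 0.0057 and 0.33, and without control replicate 1 they were -0.51 and -0.30. In the 2 dimmer probe sets each diabetic pool exceeded both controls. Probe set 1427746_x_at had 1046, 1138 and 879 in diabetic pools, against 698.5 and 808.7 in control pools, a difference of 0.38 (-0.070 to 0.83). Probe set 1450534_x_at had 210.6, 322.2 and 310.1 in diabetic pools, against 44.3 and 99.1 in control pools, a difference of 1.07. It lay below the filter on dim signals and was not fitted, and its size depends on the pseudocount, at 2.04 with 1 and 0.35 with 690.04. None of the H2-K1 probe sets set diabetic replicates 1 and 2 apart in the manner of the 3 H2-D1 probe sets.

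B2m, the shared light chain gene, differed more between the 2 controls than between the group means. Probe set 1449289_a_at had signals of 5232, 5959 and 5514 in diabetic pools, against 4327 and 7995 in control pools. Probe set 1452428_a_at had 5607, 5353 and 4337 in diabetic pools, against 4188 and 6174 in control pools. In both, control replicate 1 was lowest and control replicate 2 highest, so the diabetic pools lay between the 2 controls. The differences were -0.081 (95% interval -0.59 to 0.43) and -0.0051 (-0.42 to 0.41). They were 0.35 and 0.27 without control replicate 2, and -0.51 and -0.28 without control replicate 1.

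Control replicate 2 was the highest pool in 9 of the 22 member probe sets, which include both of B2m, the 4 bright ones of H2-D1 and the 2 bright ones of H2-K1. The class II list was also highest there, at 4218 in summed signal over 8 genes, against 1942 to 2509 in diabetic pools and 2249 in control replicate 1. Microglia markers summed to 11154 to 16691 in diabetic pools, lowest in diabetic replicate 3, and to 15828 and 16164 in control pools. Of the 14 listed microglia markers 13 were measured, 6 lay above the filter on dim signals and 0 were at zero signal in any pool. Of those 6, 5 were lower in diabetic pools, led by C1qa at -0.47 (95% interval -1.04 to 0.11) and Csf1r at -0.36 (-0.76 to 0.033). The other, Tyrobp, differed by 0.15. Over all genes tested, 5248 of 10916 were lower. Microglia markers below the filter went both ways, from Aif1 at -1.02 to Tmem119 at 0.36. Summed pigment epithelium signal was 52529.6 to 78938 in diabetic pools, against 97383 and 142820 in control pools. None of the 10 measured markers of other leukocytes passed the filter, and their sum was 1931 to 2017 in diabetic pools, against 1841 and 2072 in control pools. The part of these cells, or of the muscle signal, in the class I values was not tested.

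All 4 probe sets of Tap1, the transporter subunit gene, lay below the filter. Its brightest, 1416016_at, had signals of 217.3, 308.8 and 285.3 in diabetic pools, against 434.6 and 286.8 in control pools. Control replicate 1 was highest and diabetic replicate 1 lowest, and the groups overlapped. The difference was -0.29, and without control replicate 1 it was -0.066. The other 3 Tap1 probe sets ran between 9.96 and 210.4 in all pools, and their differences were -0.30 for 1420274_at, 0.45 for 1449803_x_at and -0.098 for 1448177_at. Single pools carried 2 of them, as 1420274_at differed by -0.0019 without control replicate 2 and 1449803_x_at by 0.064 without diabetic replicate 1. One of them, 1448177_at, was lower in every diabetic pool, at 11.7 to 22.1, against 24.4 and 26.5 in control pools, a margin at the bottom of the array.

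Psmb9, an immunoproteasome subunit gene, was lower in each diabetic pool than in both controls. Its 1 probe set, 1450696_at, had signals of 250.5, 469.5 and 432.7 in diabetic pools, against 677.1 and 648.1 in control pools. Diabetic replicate 1 was lowest, and both controls were above all diabetic pools, as in 8.99% of all tested probe sets. Group means were 8.95 ± 0.36 (SD, n = 3) in diabetic pools and 9.61 ± 0.038 (SD, n = 2) in control pools, a difference of -0.66 (SE 0.27, 95% interval -1.29 to -0.033). The difference lay between -0.79 and -0.45 with single arrays left out, and was -0.45 without diabetic replicate 1. Its mean level lies close to the filter. The diabetic mean is just below the cut of 8.96, so the probe set passes only through the control pools, where it is high. The difference and its interval are therefore a description with no test. Psmb9 was not called over all probe sets (limma, adjusted p = 0.999935).

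Psmb8 encodes another immunoproteasome subunit. Probe set 1422962_a_at had signals of 356.5, 491.9 and 601.7 in diabetic pools, against 425.1 and 523.5 in control pools, a difference of 0.0062 (95% interval -0.60 to 0.61). The groups overlapped, and the difference between Psmb8 and Psmb9 was not tested. The dim probe set 1444619_x_at had 115.8, 8.08 and 21.9 in diabetic pools, against 132.5 and 29.5 in control pools.

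**Figure D2:**
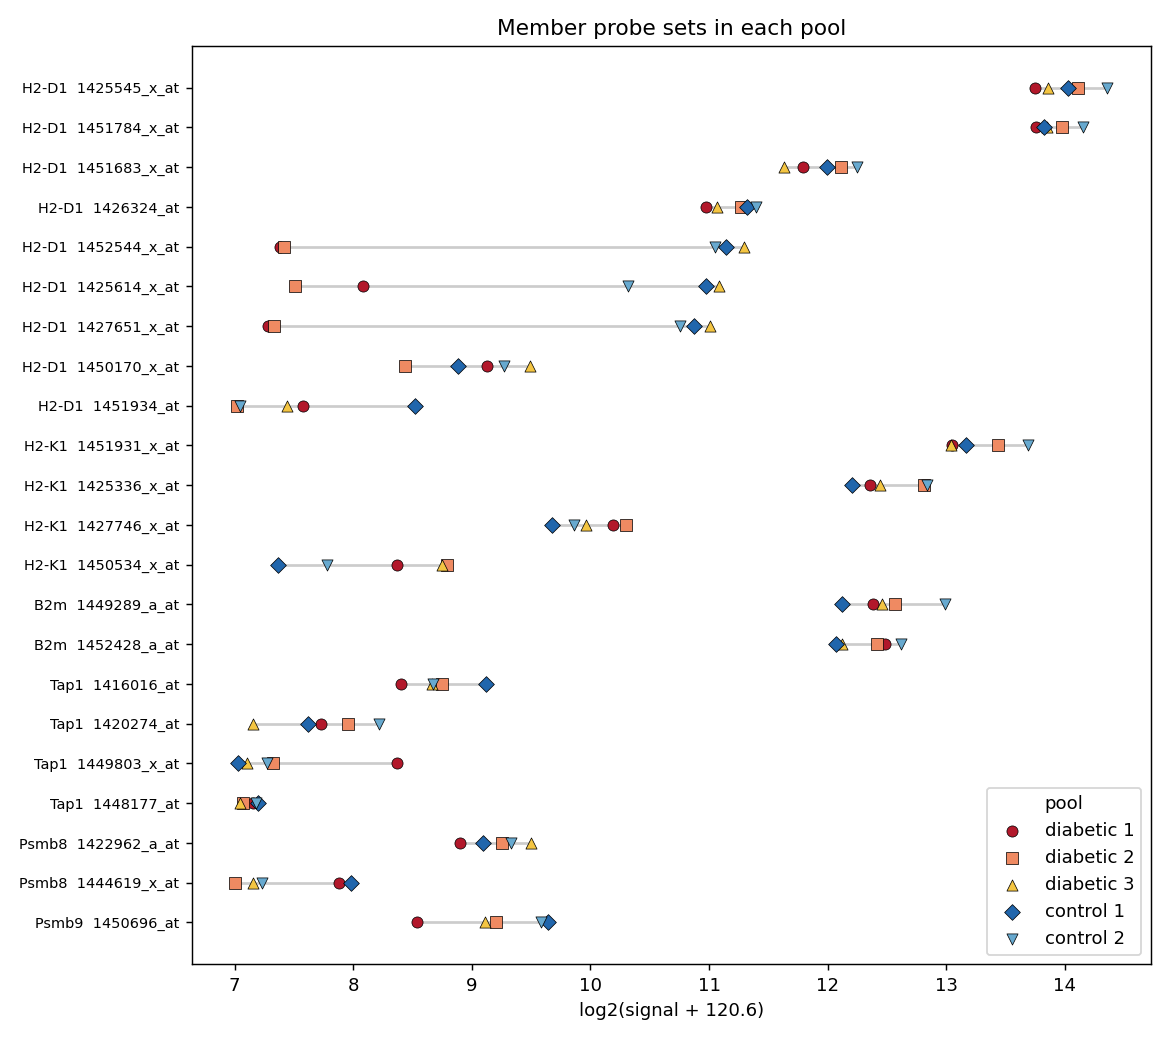
Level of each of the 22 member probe sets, as log2(signal + 120.6), in the 3 diabetic pools (circle, square, upward triangle) and the 2 control pools (diamond, downward triangle), with a grey bar over their range. The 3 wide bars are H2-D1 probe sets with ranges of 3.58 to 3.91, and no other bar is wider than 1.50.

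Across all genes, 0 of 27022 probe sets passed an adjusted p of 0.05 in limma (0% called), and the smallest adjusted p was 0.887. Of the 22 member probe sets 15 passed the filter on dim signals and 0 of them were called. At an unadjusted p under 0.05 there were 778 probe sets (2.88%), and 3 of the 15 members were among them, namely 1452544_x_at, 1427651_x_at and the Psmb9 probe set. Every diabetic pool lay below both controls in 3 of the 22 members, against 9.78% of all probe sets, and above both controls in 2 of 22, against 8.46%. Among probe sets above the filter these counts were 2 of 15 members, against 8.99%, and 1 of 15, against 8.19%. As members were chosen with this contrast in view, nothing is read from these counts. The difference was negative in 17 of 22 member probe sets and positive in 5, with a median of -0.25, beside -0.011 over all probe sets. Without control replicate 2 the median was -0.055, without diabetic replicate 3 it was -0.16, and without the 3 split H2-D1 probe sets it was -0.13. Of the 22 differences, 13 kept their sign whichever array was left out.

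**Figure D3:**
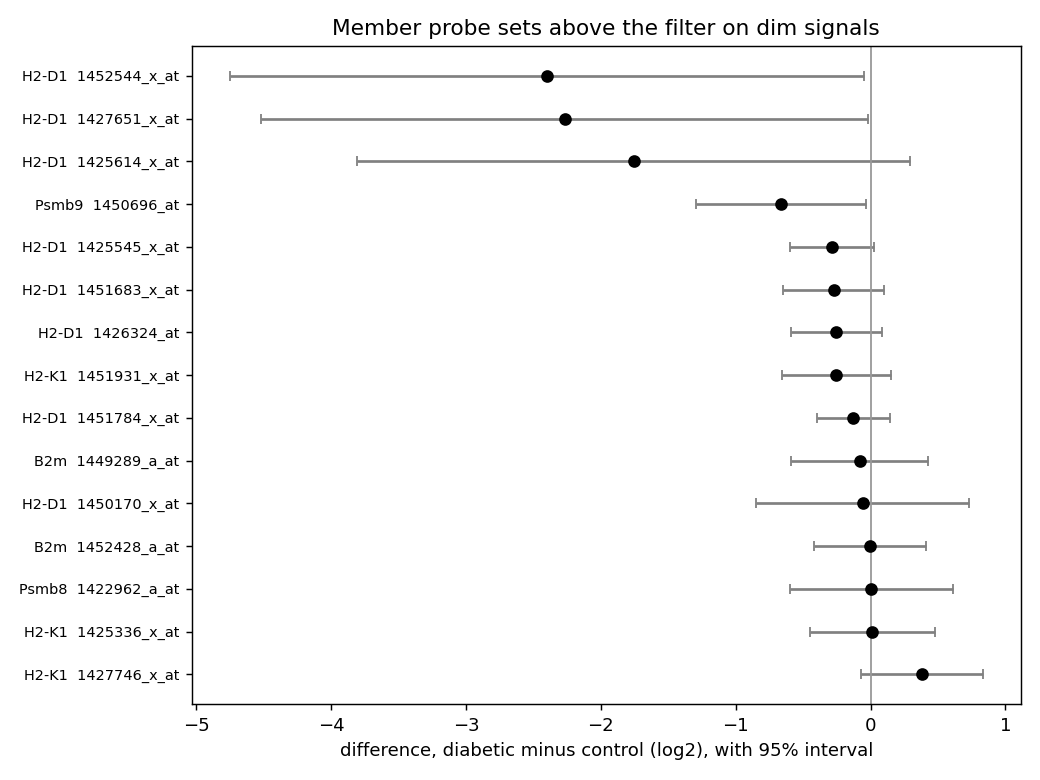
Difference of diabetic minus control pools on the log2 scale (points) with limma's 95% interval (bars) for the 15 member probe sets above the filter. The split H2-D1 probe sets have the widest intervals, up to -4.75 to -0.045, and intervals of 3 of the 15 lie below 0. These are the intervals of H2-D1 probe sets 1452544_x_at and 1427651_x_at and of the Psmb9 probe set. The H2-D1 intervals are descriptions with no test, since the members were chosen by this split. Both H2-D1 probe sets pass the filter only through the pools in which they are high, and their groups overlap. The Psmb9 interval is likewise a description, since its probe set passes the filter only through the control pools, where it is high.

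The split of H2-D1 was set against other genes of the array. Among 1538 probe sets of other genes that passed the filter and ranged by 1 log2 unit or more, the 5 most alike to 1452544_x_at over the 5 pools were those of Spc25, Snap29, 1810064F22Rik, Mrpl57 and Klhl41, with Pearson's r from 0.998 to 0.971. Spc25, a kinetochore subunit gene, had signals of 496.04, 594.9 and 9039 in diabetic pools, against 6689 and 7411 in control pools. It was low in diabetic replicates 1 and 2 and high in the other 3 pools, with a range of 3.89 close to that of H2-D1. The other 4 ranged by 1.07 to 1.26.

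The 5 most opposed probe sets were 2 of Zfp949 and 1 each of Isoc1, Cdk18 and Gpaa1, with r from -0.99963 to -0.929. Zfp949, a zinc finger gene, had signals of 5095 and 5107 in diabetic replicates 1 and 2 and 2414 in diabetic replicate 3, against 2557 and 2546 in control pools, by probe set 1458491_at. Its second probe set, 1456518_at, ran the same way, with 1494, 1263 and 412.6 in diabetic pools, against 409.1 and 531.2 in control pools. With 5 pools, of which 2 stand apart, high values of r are easily reached, so they serve to name probe sets and not to test a relation. None of these 9 genes lies on the chromosome of H2-D1.

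The measured neighbours of H2-D1 on the chromosome ranged little over the pools. Of the 20 protein-coding genes on either side in the reference order, 12 that are not members passed the filter, and their ranges over the pools were 0.14 to 0.65 with a median of 0.33, beside 0.32 over all genes tested. On the side after H2-D1 in that order the nearest of them was Vars2, at place 16, so the genes between were not covered. Ddx39b, an RNA helicase gene and the nearest measured neighbour, stood at 14.83, 15.03 and 14.92 in diabetic pools, against 14.93 and 14.98 in control pools. The neighbours were looked up after the H2-D1 values were seen.

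**Figure D4:**
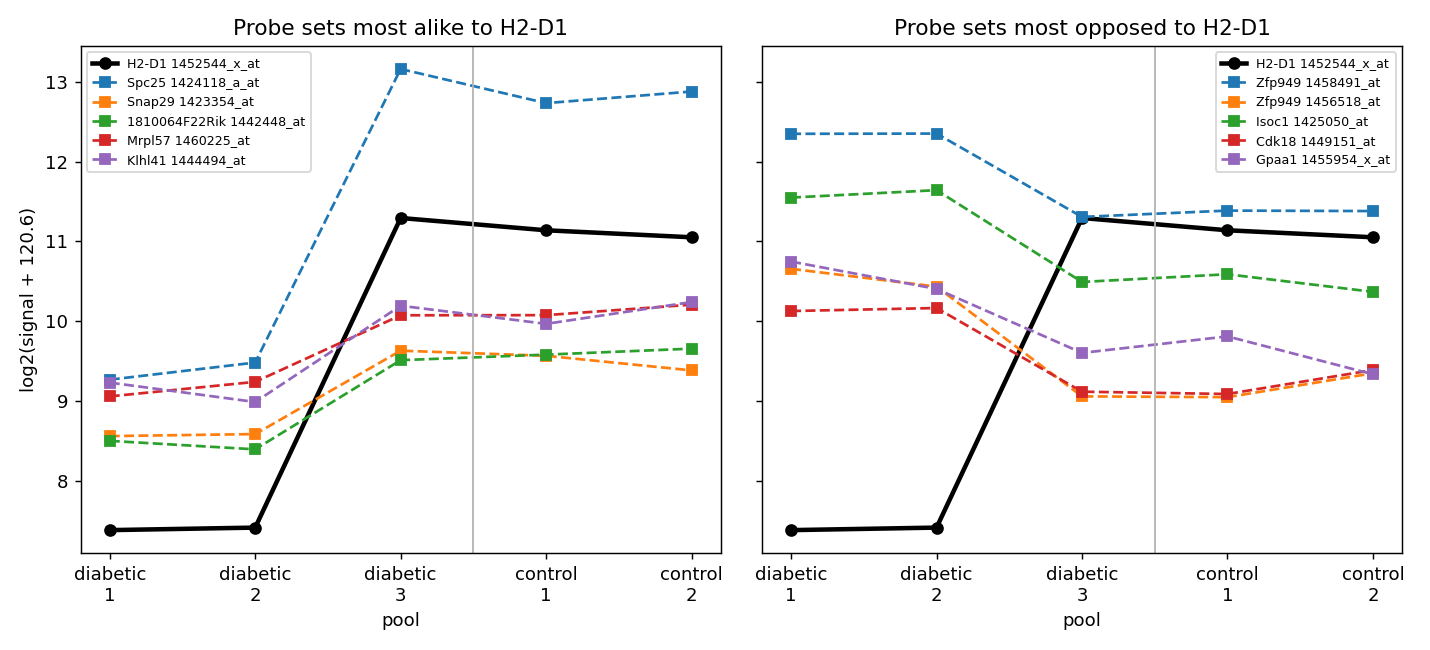
Level, as log2(signal + 120.6), of H2-D1 probe set 1452544_x_at (black) with the 5 probe sets most alike to it (left) and the 5 most opposed (right) in each pool, 1 point per pool; lines carry no order. Spc25 has a range of 3.89 and H2-D1 of 3.91, while the other 4 most alike range by 1.07 to 1.26.

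Of the member probe sets whose r with 1452544_x_at was below 0, 1450534_x_at of H2-K1 had the widest range. Its r was -0.51, and it did not mirror the split, since diabetic replicate 3 stood with the other diabetic pools. The most negative r of a member was -0.89, for 1427746_x_at of H2-K1. The probe sets most like 1450534_x_at were of Trak1, 3110021A11Rik, Pmaip1, Ppp6r2 and Lrrc19 (r from 0.994 to 0.942). Each had every diabetic pool above both controls, as did 8.19% of all tested probe sets. Picking by likeness to a probe set with that order favours this, so nothing is read from it. Pmaip1, which encodes the cell death protein Noxa, had signals of 490.01, 636.7 and 568.6 in diabetic pools, against 188.6 and 232.9 in control pools. Those most opposed were of Paqr5, Mfap2, 5730455P16Rik, Gm45914 and Clmp.

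Other genes of the class I pathway were split evenly in sign. Of 24 genes listed (peptide loading, proteasome activator, and regulators of class I transcription), 18 passed the filter, 9 lower and 9 higher in diabetic pools, with a median of -0.0053, beside 0.0060 over all genes tested, and 0 were called. The 2 of largest difference were both higher in every diabetic pool. Tap2, the partner of Tap1 in the transporter, had signals of 966.3, 1092 and 899.9 in diabetic pools, against 741.6 and 815.5 in control pools, a difference of 0.30 (95% interval -0.13 to 0.73). Psme1, a subunit of the proteasome activator PA28, had 6248, 6033 and 5742 in diabetic pools, against 5014 and 4983 in control pools, a difference of 0.26 (0.027 to 0.49). Among all tested genes, 9.99% had every diabetic pool above both controls, as did these 2 of 18. The third immunoproteasome subunit gene, Psmb10, differed by 0.031 (-0.40 to 0.47).

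Of the 14 core subunit genes of the constitutive proteasome, 2 were lower and 12 higher in diabetic pools, and 0 were called, with a median of 0.024 and differences from -0.12 to 0.14. Psmb6, the subunit that Psmb9 replaces, differed by 0.14 (95% interval -0.052 to 0.33), and Psmb1 by 0.13 (-0.077 to 0.34). Psmb5 and Psmb7, the subunits that Psmb8 and Psmb10 replace, differed by 0.013 and 0.0073. Of 24 interferon response genes listed, 22 were measured. Of 10 that passed the filter, 2 were lower and 8 higher in diabetic pools, with a median of 0.054 and 0 called. Over all genes tested, 5668 of 10916 were higher. The interferon response genes below the filter went both ways, from Oas2 at -0.67 to Mx1 at 0.34. Irgm1, an interferon-induced GTPase gene, had signals of 885.2, 1015 and 992.6 in diabetic pools, against 694.2 and 521.4 in control pools, a difference of 0.58 (0.11 to 1.05), and Igtp, of the same family, differed by 0.32 (-0.15 to 0.80).

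Of other class I and class I-like genes, 14 of 25 listed were measured and 3 passed the filter. The lipid-presenting gene Cd1d1 differed by -0.30 (95% interval -0.91 to 0.32), the iron regulator Hfe by 0.13 (-0.16 to 0.41) and H2-M3 by -0.086 (-0.79 to 0.61). Of class II genes, 8 of 9 were measured and 2 passed. Cd74, the invariant chain of class II, had signals of 633.4, 409.1 and 760.02 in diabetic pools, against 566.4 and 1548 in control pools, so that control replicate 2 stood above the rest. H2-DMa, a class II peptide loading gene, differed by 0.011 (-0.47 to 0.49). Genes of both lists below the filter went both ways. They ran from H2-Bl at -0.74 to H2-Q10 at 0.94 among class I and class I-like genes. Among class II genes they ran from H2-Ab1 at -0.81 to Ciita at 0.94.

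**Figure D5:**
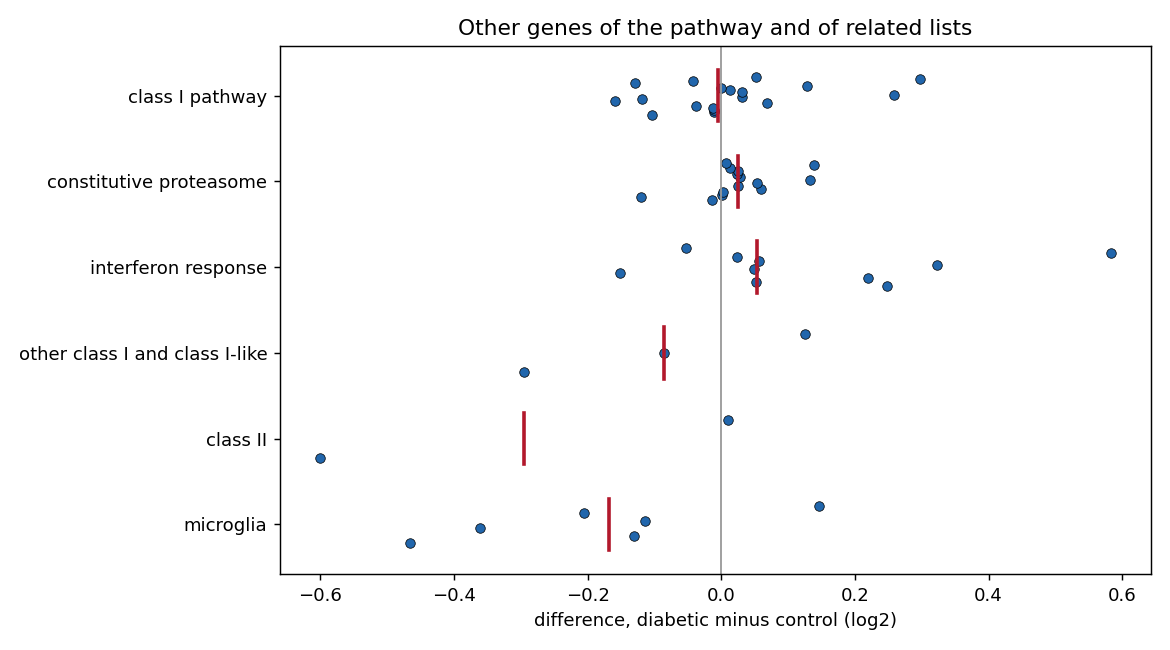
Differences of diabetic minus control pools on the log2 scale for the genes of 6 lists that passed the filter, 1 point per gene (spread vertically for view), with the median of each list as a red bar. The medians are -0.0053 for the class I pathway, 0.024 for the constitutive proteasome and 0.054 for interferon response. They are -0.086 for other class I and class I-like genes (3 genes), -0.30 for class II (2 genes) and -0.17 for microglia (6 genes).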

How the data were processed

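Per the labels, total RNA of retina pools was measured. Each deposited column holds linear signal intensities by probe set, and the 5 columns share a trimmed mean of 2500.0 (lowest and highest 2% left out), as scaling of each array by the authors gives. The summarization software is not given in the sources used here. How low signals were corrected for background is therefore unknown. Gene symbols of 34945 probe sets with 1 symbol were updated by Entrez ID through a table of assembly GRCm38.p6, which matched 34741.

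Signals were taken as log2(signal + 120.6), the pseudocount being the 20th percentile of all values. For dim genes this scale makes changes look smaller than they are. The array medians differed by 0.15 on it, and the deposited scaling was kept. The upper 60% of probe sets by mean level (27022, a mean of 8.96 or more) were fitted with limma (lmFit, eBayes with a trend, 3 residual degrees of freedom, Benjamini-Hochberg adjustment over all of them). Lists took 1 probe set per gene, that of highest mean, and the upper 60% of 18193 genes (10916). Their intervals come from the same fit. All member probe sets were reported. Of each list the 2 genes of largest difference were named, and the probe sets most alike or opposed were the 5 of highest or lowest Pearson correlation. Other named genes were chosen after their values were seen.

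The members and lists were chosen with earlier results of these data known. P-values compare pools. An exact permutation of 5 pools has 10 splits and cannot reach 0.05. The fit was run on simulated data in which all diabetic samples of some probe sets were shifted. Those data held no split within a group, so they say nothing of the H2-D1 split. Alternatives were quantile normalization, centring on medians, other pseudocounts, filters and variance models, 1 value per gene, a replicate block and each array left out. Precision is limited by having 5 arrays. Versions were limma 3.58.1 (R 4.3.3) and matplotlib 3.10.9.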

Additional observations from a re-analysis of the deposited data

How the results depend on the processing

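The count of 0 called probe sets held under 13 of 16 alternatives run, among them quantile normalization, centring on array medians, both other pseudocounts, both other filters, no trend and 1 value per gene. It was 0 to 3 with single arrays left out, with 1 call without diabetic replicate 2 (not a member) and 3 without diabetic replicate 3 (2 of them H2-D1, above the filter only through the pools in which they are high), and 10 with the replicate number as a block, of which 3 were the split H2-D1 probe sets. That block takes diabetic replicate 3 out, as no control shares its number. It is the only diabetic pool in which the split probe sets are high, and they pass the filter only through such pools. Their calls thus follow from how the members were chosen and are no test. The replicate numbers are titles only, and deviations from group means correlated at 0.13 for the number 1 and -0.0075 for the number 2, so the samples were not treated as paired. The median difference of the members, -0.25, lay between -0.29 and -0.055 with single arrays left out (-0.055 without control replicate 2), and was -0.063 without diabetic replicate 3 and control replicate 2, the 2 arrays of high muscle signal, a fit that leaves 1 control array. Of the 22 single differences, 0 changed sign under quantile normalization or another pseudocount and 1 under centring on medians, against 4 without control replicate 1, 5 without control replicate 2 and 6 without the 2 muscle arrays. The sizes of the split depend on the pseudocount, since 35.3 to 149.9 is near the floor: 1452544_x_at differed by -3.53 with a pseudocount of 1 and by -1.22 with one of 690.04. Whether these low signals differ from background cannot be read from the files.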
